A study of Mus musculus with 28 samples.

Results

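The genes described here encode the ion channels of the sperm flagellum. They were chosen by name, as the 8 *CatSper* genes *Catsper1*, *Catsper2*, *Catsper3*, *Catsper4*, *Catsperb*, *Catsperd*, *Catsperg1* and *Catsperg2* together with *Kcnu1*, which encodes the potassium channel Slo3. These are 9 of the 37122 genes with at least 1 transcript in the deposited RPKM matrix (read counts scaled by transcript length and by mapped reads), and the value of a gene is the sum of its transcripts. CatSper is the calcium channel of the sperm tail. CATSPER1 to CATSPER4 line its pore, and the products of *Catsperb*, *Catsperd* and the *Catsperg* genes are auxiliary subunits that span the membrane beside it. Slo3 carries the alkalinization-activated potassium current that sets the membrane potential of sperm. Both channels are needed for hyperactivated swimming and male fertility in mice.

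RNA-seq was available for 27 testis-derived libraries from 12 mice, wildtype or carrying a constitutive knockout of *Csmd1*, a complement-regulatory gene. In the knockout a lacZ and neomycin cassette replaces exon 1 and part of intron 1, in every cell of the animal. The labels give the strain as C57BL/6, and the methods of the study describe a mixed 129SvEvBrd:C57BL/6 background. No other treatment is given for either genotype. Germ cells were sorted from Hoechst-stained testis suspensions by DNA content and chromatin state into spermatogonia (2 wildtype and 2 knockout libraries), primary spermatocytes (2 and 4), secondary spermatocytes (2 and 3) and spermatids (3 and 2), and 7 testes (2 and 5) were sequenced whole. The 20 sorted libraries came from 8 mice, most of which gave several stages. The study describes sexually mature males for sorting, and both immature and mature whole testes. The labels used here give no age for a mouse, so in whole testes genotype and age cannot be told apart. For the same reason the age of the sorted mice could not be checked. The gene sum of *Csmd1* ranged from 0.049 to 6.33 RPKM in the 16 knockout libraries and from 0.033 to 1.66 in the 11 wildtype libraries. That sum includes exons outside the deleted part, so it does not check the genotype.

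Several libraries stood apart from their labels or from the rest. The 6 late marker genes of elongating spermatids (*Prm1*, *Prm2*, *Prm3*, *Tnp1*, *Tnp2*, *Odf1*) summed to 11210 RPKM in the spermatogonia of knockout mouse 544, against 476, 1.69 and 7.02 RPKM in the other 3 spermatogonia libraries, and its spermatogonial markers summed to 92.0 RPKM against 271 to 742. The main comparisons and correlations that use this library are given with and without it. Some single values are given only with it, among them those of *Kcnt1* and of the named list genes between later and earlier stages. Among spermatids the late markers summed to between 7634 and 8071 RPKM in mice 178, 351 and 544, and to 57.4 and 122 RPKM in mice 648 and 286. The 6 round spermatid markers were present in all 5 of those libraries, at 591 to 1339 RPKM in sum. Low late markers were not limited to the spermatids of mice 648 and 286. *Prm1* was at 0.094 to 0.691 RPKM in every library of mouse 648 and at 0.348 to 2.14 RPKM in every library of mouse 286, whole testes included. The primary spermatocytes of knockout mouse 613 were quantified differently from the other libraries, and the leading transcripts of *Catsper4* and *Catsperg1* are listed at 0 there. Estimated depth was 23811316 to 61657827 mapped reads in the other libraries.

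*Catsperg1* and *Catsperg2* both lie on chromosome 7 (GRCm38), at 29181321-29214035 and 29697219-29727032 on the minus strand. The leading transcripts of this pair share a stretch of 1698 aligned bases at 98.1% identity and another of 1845 bases at 94.9%, and 20.9% of the 100-base windows of *Catsperg1* occur unchanged in *Catsperg2*. How reads were split between these 2 genes is therefore uncertain. *Catsper2* (chr2:121392631-121413792, minus strand) shares 18 exonic bases with *Pdia3* on the opposite strand. *Catsper1* is at chr19:5335741-5344280 and *Kcnu1* at chr8:25849623-25937939, both on the plus strand. *Catsper3* (chr13:55784568-55808998, plus), *Catsper4* (chr4:134211970-134227383, minus), *Catsperb* (chr12:101404653-101626009, plus) and *Catsperd* (chr17:56628143-56664456, plus) overlap no exon of another gene.

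The 250 bases before the start site, from RefSeq on GRCm38.p6, are shown for genes with different levels across the sorted stages. They are printed 5′ to 3′ on the strand of the gene. *Catsper3* and *Catsper4* stand for the genes that were highest in spermatids, and *Catsperb* and *Catsperd* for those that were already high in primary spermatocytes.
Catsper3, chr13:55784329-55784578, plus strand: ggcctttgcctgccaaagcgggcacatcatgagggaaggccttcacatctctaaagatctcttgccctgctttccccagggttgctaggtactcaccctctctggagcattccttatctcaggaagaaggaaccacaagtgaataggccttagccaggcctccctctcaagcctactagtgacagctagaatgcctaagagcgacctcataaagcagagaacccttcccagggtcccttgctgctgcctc
Catsper4, chr4:134227384-134227633, minus strand: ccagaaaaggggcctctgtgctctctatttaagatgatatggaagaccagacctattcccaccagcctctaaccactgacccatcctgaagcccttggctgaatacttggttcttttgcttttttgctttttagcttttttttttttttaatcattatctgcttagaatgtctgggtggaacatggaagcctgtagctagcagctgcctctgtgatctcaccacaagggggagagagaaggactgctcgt
Catsperb, chr12:101404423-101404672, plus strand: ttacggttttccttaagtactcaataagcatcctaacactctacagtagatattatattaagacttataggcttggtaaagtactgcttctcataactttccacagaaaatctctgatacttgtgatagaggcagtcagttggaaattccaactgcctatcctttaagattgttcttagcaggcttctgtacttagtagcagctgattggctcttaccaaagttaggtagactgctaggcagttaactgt
Catsperd, chr17:56627893-56628142, plus strand: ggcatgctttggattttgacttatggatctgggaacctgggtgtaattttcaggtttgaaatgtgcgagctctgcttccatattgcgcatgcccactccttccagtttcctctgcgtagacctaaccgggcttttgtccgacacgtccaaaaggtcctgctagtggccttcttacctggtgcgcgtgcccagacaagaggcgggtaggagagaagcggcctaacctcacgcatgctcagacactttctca

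The *Catsperb* window had 38% GC and 1 CpG, and the *Catsper4* window 45.2% GC and 1 CpG. The *Catsper3* window had 54% GC and 2 CpG, and this *Catsperd* window 52.8% GC and 11 CpG. The *Catsper3* window shares 81 bases with an exon of *4930451E10Rik* on the opposite strand. The window of *Catsper2*, which lies within the first exon of *Pdia3*, was the richest, with 74.8% GC and 35 CpG. Over 32851 mouse windows the median was 52.4% GC and 6 CpG. The cAMP response element TGACGTCA, searched on both strands, was in 0 of the 8 windows found for 6 members and in 1.79% of all windows of the table. Its core TGACG, which also lies within the full element, was in 2 member windows and in 20.8% of all. GTTGCC was the only form of a motif of RFX factors that was searched, so variants of it were not counted. It was in 0 of the 8 and in 12.5% of all. These shares count windows that run 50 bases past the start site. The core match of *Catsper2* lies 77 bases before the start site, on the opposite strand, and is shown in capitals with its flanks because *Catsper2* was the pore gene that was already high in primary spermatocytes.
Catsper2, chr2:121413855-121413879, minus strand: cgattggctgCGTCAcgcagcgtcg
The other member window with the core was that of another *Catsperd* start site, upstream of the one shown, which held 3 matches. A match of these letters is a description of the sequence and not a binding site.

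*Catsper1*, *Catsper3*, *Catsper4* and *Kcnu1* were low in primary spermatocytes and high in secondary spermatocytes and spermatids, whereas *Catsper2* and the 4 auxiliary genes were already near their highest level in primary spermatocytes. For the pore gene *Catsper1*, primary spermatocytes had between 2.13 and 8.95 RPKM (median 4.54, n = 6) and secondary spermatocytes 27.0, 18.1, 23.7, 68.5 and 70.4 RPKM in mice 178, 648, 286, 544 and 550. Spermatids had 68.7, 64.0, 55.2, 64.7 and 129 RPKM in mice 178, 351, 648, 286 and 544. The primary spermatocytes overlapped neither the secondary spermatocytes nor the spermatids. Spermatogonia had 3.69, 0.748 and 0.475 RPKM in mice 178, 648 and 286, and 128 RPKM in mouse 544, the library with the spermatid markers.

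*Catsper4*, another pore gene, was at 1.71, 0.875 and 0.602 RPKM in the spermatogonia of mice 178, 648 and 286, and at 237 RPKM in those of mouse 544. Primary spermatocytes ranged from 2.92 to 27.1 RPKM (median 8.30, n = 6). Secondary spermatocytes had 58.2, 10.7, 88.9, 183 and 189 RPKM in mice 178, 648, 286, 544 and 550, so mouse 648 lay inside the range of primary spermatocytes. Spermatids reached 323, 334, 176 and 340 RPKM in mice 178, 351, 286 and 544, but only 46.3 RPKM in mouse 648.

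*Catsper3*, the third pore gene of this kind, differed most between mice within a stage. Its secondary spermatocytes had 35.9, 2.68, 21.0, 82.3 and 81.3 RPKM in mice 178, 648, 286, 544 and 550, and its spermatids 120, 80.9, 38.4 and 202 RPKM in mice 178, 351, 286 and 544 against 10.7 RPKM in mouse 648. Primary spermatocytes ranged from 0.425 RPKM, again in mouse 648, to 18.6 RPKM (median 4.01, n = 6). *Kcnu1*, in contrast, was even across mice in spermatids, with 101, 79.0, 91.6, 108 and 98.4 RPKM in mice 178, 351, 648, 286 and 544. Its secondary spermatocytes had 27.0, 43.4, 41.5, 52.3 and 59.7 RPKM in mice 178, 648, 286, 544 and 550, above all 6 primary spermatocyte libraries (4.45 to 15.8 RPKM). Its spermatogonia had 7.60, 3.64 and 1.48 RPKM in mice 178, 648 and 286, and 95.4 RPKM in mouse 544.

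*Catsper2*, the remaining pore gene, was at 22.9, 11.7 and 28.6 RPKM in the spermatogonia of mice 178, 648 and 286 and at 195 RPKM in those of mouse 544. It was at 61.8 to 180 RPKM in primary spermatocytes (median 137), at 149 to 259 RPKM in secondary spermatocytes (median 164) and at 132 to 270 RPKM in spermatids (median 190). These 3 stages overlapped. *Catsperd* had 3.78, 2.69 and 8.34 RPKM in the spermatogonia of mice 178, 648 and 286, 25.0 RPKM in those of mouse 544, and medians of 41.3, 39.8 and 26.1 RPKM in primary spermatocytes, secondary spermatocytes and spermatids. *Catsperg2* had medians of 5.16, 29.4, 33.5 and 22.6 RPKM in the 4 stages in the same order, and *Catsperb* medians of 4.38, 24.2, 18.8 and 20.9 RPKM. The gene sum of *Catsperg1*, taken over 14 transcripts, had medians of 121, 317, 429 and 313 RPKM. Without mouse 544 the spermatogonia medians were 3.78 RPKM for *Catsperd*, 3.80 for *Catsperg2*, 3.08 for *Catsperb* and 90.3 for *Catsperg1*.

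**Figure D1:**
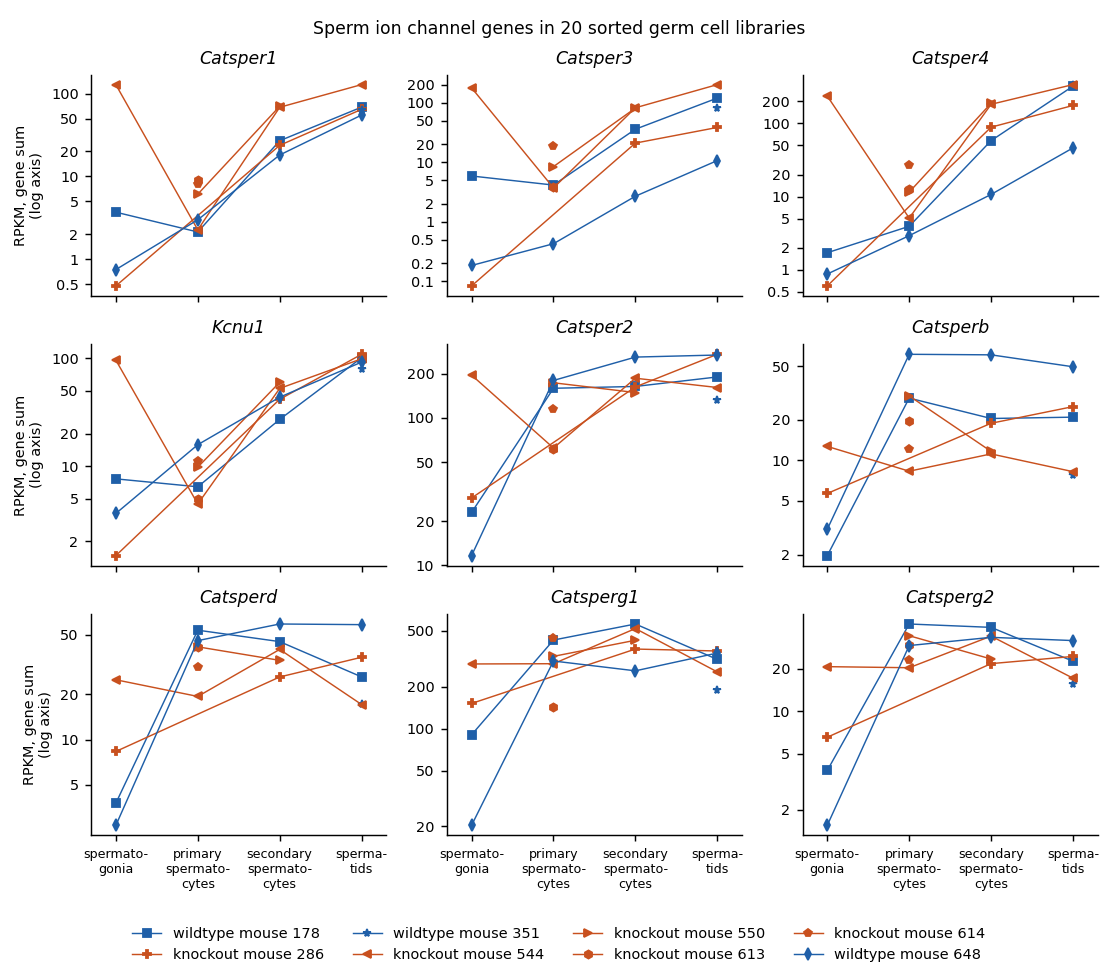
RPKM of each gene (sum of its transcripts, log axis) in the 20 sorted libraries by stage, with each mouse as a symbol joined over its stages, blue for wildtype and orange for knockout. *Catsper1*, *Catsper3*, *Catsper4* and *Kcnu1* climb from primary spermatocytes to spermatids in each mouse with these stages, the other 5 genes show no common direction after primary spermatocytes, and the spermatogonia of mouse 544 lie above the other 3 for all 9 genes.

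Levels of different genes were compared by the leading transcript of each, the protein-coding transcript with the highest mean over the 27 libraries, because reads were counted for every transcript they overlap. In spermatids the leading transcript of *Catsper2* had the highest median (80.0 RPKM), followed by *Catsper4* (67.3), *Catsper1* (64.7), *Kcnu1* (41.6), *Catsper3* (40.6), *Catsperg1* (29.9), *Catsperd* (26.1), *Catsperg2* (22.6) and *Catsperb* (20.9). Over the 5 libraries the ranges of neighbours in this order overlapped, except that *Catsper1* (55.2 to 129 RPKM) lay above *Kcnu1* (30.5 to 47.0 RPKM). In primary spermatocytes the same transcripts of *Catsper1*, *Catsper3* and *Catsper4* had medians of 4.54, 2.20 and 1.20 RPKM, beside 55.6 RPKM for *Catsper2* and 41.3 RPKM for *Catsperd*. In bulk libraries such as these, fewer cells of a type and less RNA per cell cannot be told apart.

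Neighbouring stages were compared with limma on log2(RPKM + 0.1) over all 22715 genes tested, all 9 members included, with Benjamini-Hochberg adjustment and a threshold of 0.05. The pseudocount makes differences of low genes smaller. From spermatogonia to primary spermatocytes 5 of the 9 genes rose, where 7.54% of all genes did. *Catsperd* rose by 2.52 ± 0.44 (SE) on the log2 scale (adjusted p by limma 0.00110) and *Catsperg2* by 2.48 ± 0.41 (0.000855). *Catsperb* rose by 2.46 ± 0.57 (0.00514), *Catsper2* by 1.84 ± 0.50 (0.0126) and *Catsperg1* by 1.75 ± 0.47 (0.0120). The differences of *Catsper1* (-0.02 ± 1.02), *Kcnu1* (0.07 ± 0.78), *Catsper3* (0.25 ± 1.52) and *Catsper4* (0.65 ± 1.15) did not pass. Without the spermatogonia of mouse 544 the count was 8, where 11.0% of all genes rose, with *Catsper4* at 2.75 ± 0.74 (adjusted p by limma 0.0106), *Catsper1* at 1.93 ± 0.59 (0.0206) and *Kcnu1* at 1.54 ± 0.45 (0.0159), and *Catsper3* at 2.73 ± 1.18 (0.0950). Without the spermatogonia of wildtype mouse 648 or of knockout mouse 286 the count was 3, where 3.25% and 3.18% of all genes rose, and without all libraries of mouse 648 it was 2, where 1.46% did.

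From primary to secondary spermatocytes 0 of the 9 genes passed in the same limma fit, where 2.81% of all genes rose. An unadjusted p under 0.05, in either direction, was found for 3 of the 9 and for 4777 of the 22715 genes. The differences were nevertheless large for *Catsper4* (3.22 ± 1.09, adjusted p by limma 0.104), *Catsper1* (3.08 ± 0.97, 0.0849), *Catsper3* (2.82 ± 1.45, 0.278) and *Kcnu1* (2.30 ± 0.74, 0.0910), and each of these genes was higher in secondary spermatocytes in 4 of 4 mice that gave both stages. How many of all genes were higher in 4 of 4 mice was not counted. With the mouse as a random replicate block all 4 genes passed, with adjusted p by limma of 0.0125 for *Catsper1*, 0.0163 for *Catsper4*, 0.0208 for *Kcnu1* and 0.0490 for *Catsper3*, and 14.5% of all genes rose. Without the spermatogonia of mouse 544, whose deviation enters the shared estimate of the spread, *Catsper1*, *Catsper4* and *Kcnu1* passed (3 of 9, 6.99% of all genes). The same 3 passed without the spermatogonia of mouse 286 (7.01% of all genes). The other 5 members differed by -0.23 (*Catsperb*) to 0.55 (*Catsper2*), with standard errors of 0.39 to 0.55.

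From secondary spermatocytes to spermatids 0 of the 9 genes passed in limma, and 0% of all genes rose, while 3596 of the 22715 genes and 0 of the 9 had an unadjusted p under 0.05. *Catsper4* (1.76 ± 1.12), *Catsper3* (1.50 ± 1.49), *Kcnu1* (1.21 ± 0.76) and *Catsper1* (1.20 ± 1.0) were each higher in spermatids in 4 of 4 mice. The other 5 differed by -0.60 (*Catsperd*) to 0.11 (*Catsper2*). For this step too, the number of all genes higher in 4 of 4 mice was not counted. With the spermatogonia of mouse 544 left out, 0 of the 9 and 0% of all genes rose. An unadjusted p under 0.05 was then found for 3 of the 9, and this was not counted over all genes. When the spermatogonia of mouse 544 and the library of mouse 613 were left out and the mouse was a block, *Catsper1*, *Catsper4* and *Kcnu1* passed, and 3.34% of all genes rose.

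Secondary spermatocytes and spermatids together (the later stages) were then compared with spermatogonia and primary spermatocytes (the earlier stages). A gene that is low only in spermatogonia can therefore pass. Of the 9 genes 8, all but *Catsperb*, were higher in the later stages, where 16.0% of all genes were. The median difference of the 9 was 1.52 on the log2 scale, beside -0.06 over all genes. *Catsper4* was higher by 4.42 ± 0.80 (adjusted p by limma 0.000913), *Catsper3* by 3.69 ± 1.06 (0.0137), *Catsper1* by 3.68 ± 0.72 (0.00137) and *Kcnu1* by 2.93 ± 0.55 (0.00105). *Catsper2* was higher by 1.52 ± 0.35 (0.00382), *Catsperd* by 1.01 ± 0.31 (0.0178), *Catsperg2* by 1.0 ± 0.28 (0.0130) and *Catsperg1* by 0.98 ± 0.33 (0.0306). From primary to secondary spermatocytes *Catsperd*, *Catsperg2* and *Catsperg1* differed by only 0.05, 0.02 and 0.36. From secondary spermatocytes to spermatids they differed by -0.60, -0.52 and -0.50, so for them the contrast shows no rise after primary spermatocytes. *Catsperb* differed by 0.81 ± 0.40 (0.129), and passed with the mouse as a block (0.87, adjusted p by limma 0.0345). The same 8 passed without the spermatogonia of mouse 544, where 20.8% of all genes did. *Catsper4* was then higher by 5.47 ± 0.49, *Catsper3* by 4.93 ± 0.78, *Catsper1* by 4.65 ± 0.39 and *Kcnu1* by 3.67 ± 0.29, and *Catsperb* differed by 0.96 ± 0.42 (adjusted p by limma 0.0839). Without mouse 648 only *Catsper1*, *Catsper4* and *Kcnu1* passed, where 8.02% of all genes did. *Catsperg1* also missed the threshold without the spermatogonia of mouse 648 (0.71, adjusted p by limma 0.104) and in other single omissions.

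**Figure D2:**
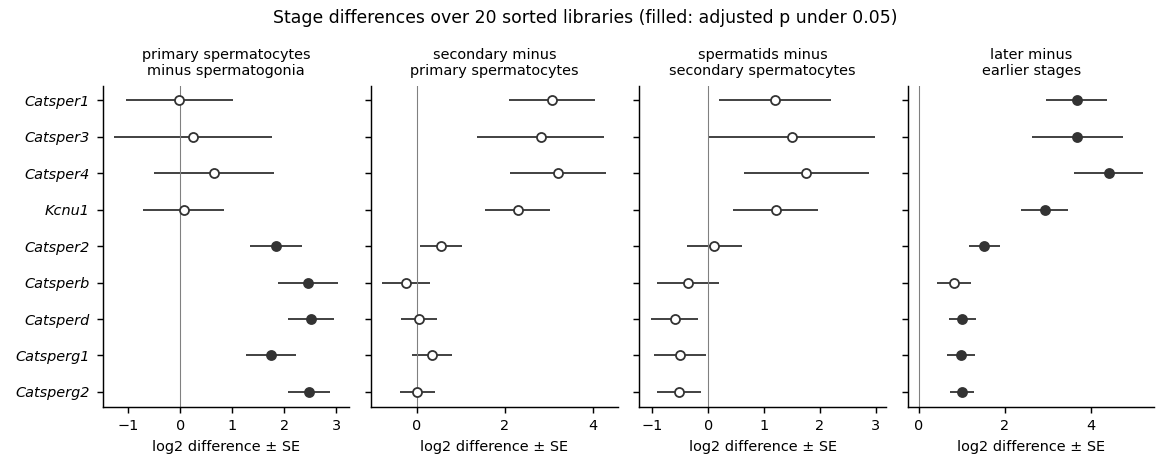
Log2 difference between stages for each gene (points, with bars of 1 standard error, limma over 20 sorted libraries), with filled points where the adjusted p was under 0.05. In the first panel the 5 filled genes lie between 1.75 and 2.52. *Catsper1*, *Catsper3*, *Catsper4* and *Kcnu1* lie near 0 there, with standard errors of 0.78 to 1.52. In the second panel these 4 lie between 2.30 and 3.22 and the other 5 near 0. Without the spermatogonia of mouse 544, which is not drawn, *Catsper1*, *Catsper4* and *Kcnu1* also passed in the first comparison (11.0% of all genes rose).

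The same contrast was tested for each gene by an exact permutation of the stages within the 5 mice that gave both earlier and later libraries, 1296 arrangements in all. *Catsper1*, *Catsper3*, *Catsper4* and *Kcnu1* were higher in the later stages in 5 of 5 mice, each with a two-sided exact p of 0.00154. The exact p was 0.0147 for *Catsper2* (higher in 4 of 5 mice) and 0.0224 for *Catsperg1* (5 of 5). It was 0.0864 for *Catsperd*, 0.125 for *Catsperg2* (both 4 of 5) and 0.266 for *Catsperb* (3 of 5). These p-values are unadjusted. Without the spermatogonia of mouse 544 (648 arrangements) the 4 smallest exact p stayed at 0.00154, the smallest that design allows, and those of *Catsper2* and *Catsperg1* were 0.00617 and 0.0340.

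The spermatid libraries that stood apart in their late markers also held the lowest values of some members. The spermatids of mice 648 and 286, with late markers at 57.4 and 122 RPKM in sum, had the lowest *Catsper3* (10.7 and 38.4 RPKM) and *Catsper4* (46.3 and 176 RPKM) of the 5 spermatid libraries. *Kcnu1* was at 91.6 and 108 RPKM there and *Catsper1* at 55.2 and 64.7 RPKM, within or near the 79.0 to 101 RPKM and 64.0 to 129 RPKM of the other 3. *Catsper2* (267 and 270 RPKM), *Catsperb* (49.5 and 25.0), *Catsperd* (58.2 and 35.3), *Catsperg1* (347 and 359) and *Catsperg2* (31.7 and 24.5) had their highest spermatid values in these 2 libraries. The part of the late spermatid transcripts in these values was not tested. In the spermatogonia of mouse 544, which had the highest late marker sum of the sorted libraries, *Catsper4* was at 237 RPKM and *Catsperd* at 25.0 RPKM, beside 340 and 17.1 RPKM in the spermatids of the same mouse.

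**Figure D3:**
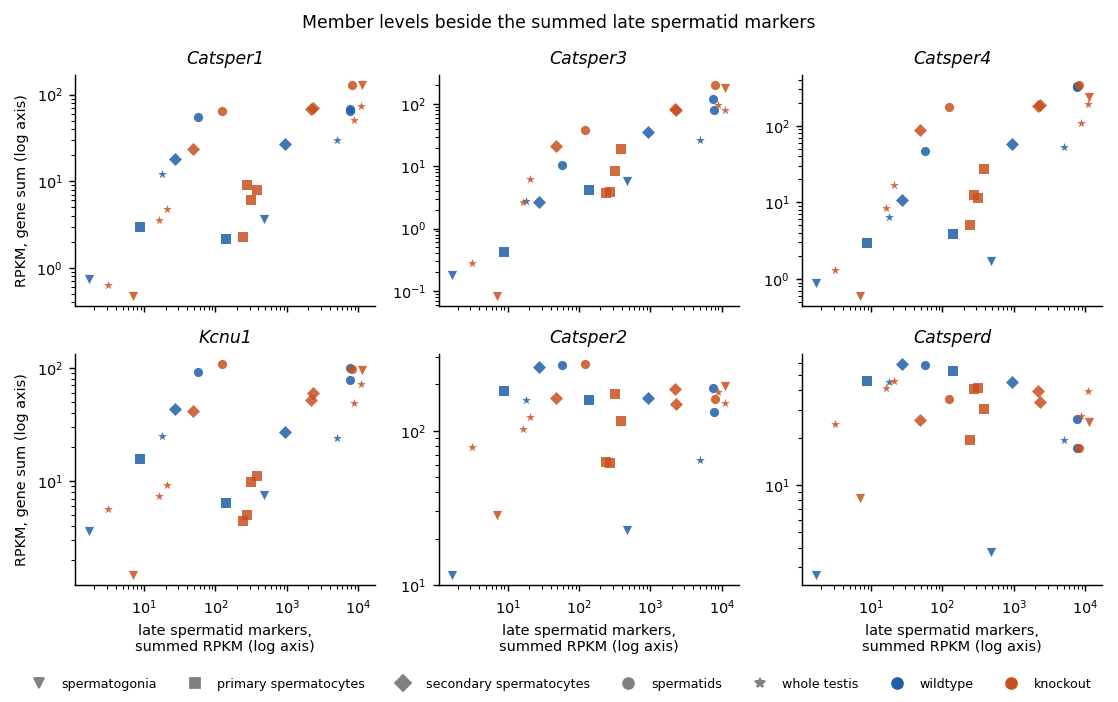
RPKM of 6 of the genes against the summed RPKM of 6 late spermatid markers in 27 libraries (both axes log), with a symbol for each stage, blue for wildtype and orange for knockout. Among spermatids *Catsper3* and *Catsper4* are lower in the 2 libraries with marker sums of 57.4 and 122 RPKM than in the 3 with 7634 to 8071 RPKM, *Catsper2* and *Catsperd* are higher there, and *Kcnu1* is at 79.0 to 108 RPKM in all 5.

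In whole testes the 7 libraries spread widely for the genes that were highest in spermatids. *Catsper4* had 52.5 and 6.52 RPKM in wildtype mice 178 and 648, and 109, 8.48, 190, 16.7 and 1.29 RPKM in knockout mice 214, 269, 273, 286 and 308. *Catsper1* had 29.6 and 12.3 RPKM in the wildtype testes and 50.9, 3.55, 74.1, 4.78 and 0.640 RPKM in the knockout testes in the same order. *Catsper3* had 26.2 and 2.76 RPKM, and 95.1, 2.70, 80.2, 6.26 and 0.280 RPKM. The highest values of all 3 genes were in mice 214, 273 and 178, whose late spermatid markers summed to 8838, 11043 and 5033 RPKM, and the markers of the other 4 testes summed to between 3.13 and 20.7 RPKM. Both genotypes were on both sides of this gap, and the part of the late spermatid transcripts was not tested. Mice 648 and 286, on the low side, were also the mice whose sorted spermatids were low in late markers.

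*Kcnu1* ranged from 5.63 RPKM in mouse 308 to 72.0 RPKM in mouse 273, with 24.0 and 24.8 RPKM in the 2 wildtype testes. The genes that were high in primary spermatocytes varied less, with *Catsper2* at 64.5 to 178 RPKM, *Catsperd* at 19.3 to 46.2 RPKM, *Catsperg2* at up to 38.6 RPKM (median 29.0) and *Catsperg1* at 232 to 777 RPKM. *Catsperb* was at 4.81 and 52.5 RPKM in the wildtype testes, which enclosed all 5 knockout testes (13.0 to 22.2 RPKM).

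Knockout and wildtype were next compared within each sorted stage, over the stages and in whole testis, which asks whether loss of *Csmd1* goes with a change of sperm channel transcripts. In the limma fits 0 of the 9 genes passed in each of the 4 stages and in whole testis, where 0% of all genes passed, and 0 of the 9 passed over the stages, where 0.00880% of all genes (2 of 22715) did. The number of genes with an unadjusted p under 0.05 was 1130 for spermatogonia, 1754 and 716 for primary and secondary spermatocytes, 173 for spermatids, 1763 over the stages and 2492 in whole testis. Of the members 4 were among them in spermatogonia, 1 over the stages and 0 in the others. Leaving out the spermatogonia of mouse 544 leaves 1 knockout library in that stage. Then 0 of the 9 passed in primary spermatocytes, secondary spermatocytes and spermatids, where 0% of all genes did. Over the stages 0 of the 9 passed, where 0.00441% of all genes did. Of the 9, 1 in secondary spermatocytes and 0 in primary spermatocytes, spermatids and over the stages had an unadjusted p under 0.05. That number was not counted over all genes in this fit.

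Genotype differs between mice, while this fit takes libraries of 1 mouse as independent. Residuals of such libraries had a median r of 0.53, so standard errors and p of differences over the stages may be too small. Over the stages the knockout minus wildtype difference was largest for *Catsper4* (2.03 ± 0.80 on the log2 scale, unadjusted p by limma 0.0219, adjusted p 0.615), followed by *Catsper3* (1.91 ± 1.06) and *Catsper1* (1.27 ± 0.72). The others ranged from -0.38 ± 0.40 (*Catsperb*) to 0.56 ± 0.33 (*Catsperg1*), beside 0.22 for the median of all genes. The differences over the stages without the spermatogonia of mouse 544 were 0.98 ± 0.49 for *Catsper4*, 0.67 ± 0.78 for *Catsper3* and 0.29 ± 0.39 for *Catsper1*, and those of the others ran from -0.53 ± 0.42 (*Catsperb*) to 0.45 ± 0.34 (*Catsperg1*). In spermatogonia all 9 differences were positive, from 1.20 ± 1.18 (*Kcnu1*) to 3.28 ± 1.74 (*Catsper4*), with adjusted p by limma of at least 0.939. Without mouse 544, which leaves 1 knockout library, *Catsper1* differed by -1.64, *Catsper3* by -2.83, *Catsper4* by -0.92 and *Kcnu1* by -1.76, while *Catsper2* (0.81), *Catsperb* (1.17), *Catsperd* (1.36), *Catsperg1* (1.82) and *Catsperg2* (1.39) stayed positive. Without the other knockout library, of mouse 286, 7 of the 9 passed in spermatogonia, where 6.01% of all genes did, which leaves mouse 544 alone on the knockout side. *Catsper1* (2.24) and *Catsper4* (3.08) then passed over the stages (adjusted p by limma 0.0251 for both), where 1.71% of all genes did.

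In spermatids the genotypes overlapped for each gene, with differences from -0.48 ± 0.79 (*Catsperb*) to 0.91 ± 2.10 (*Catsper3*), and the standard errors leave room for differences of more than 1 on the log2 scale for most members. Primary spermatocytes had differences from -1.42 ± 0.75 (*Catsperb*) to 2.24 ± 1.99 (*Catsper3*), and secondary spermatocytes from -1.38 ± 0.79 (*Catsperb*) to 2.53 ± 1.59 (*Catsper4*). Whether the difference between later and earlier stages itself depended on genotype was tested by an interaction term. Over all genes 0% passed, with or without the spermatogonia of mouse 544. Of the 9 genes 0 passed (adjusted p by limma 1.0 for each, 1 with an unadjusted p under 0.05, *Catsperg2* at -1.21 ± 0.57). It was also 0 of the 9 without the spermatogonia of mouse 544, with *Catsperg2* at -0.79 ± 0.54 and an unadjusted p under 0.05 for 1 gene, *Kcnu1* at 1.52 ± 0.59.

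Libraries that lack values for the same transcripts were taken as quantified together, which gives groups that mostly hold 1 library of a genotype and stage. Among the 14 libraries of the largest such group, the knockout minus wildtype difference in spermatids (1 knockout and 2 wildtype libraries) was -1.36 for *Catsper3*, -0.90 for *Catsper4*, -0.04 for *Catsper1* and 0.28 for *Kcnu1*. For the same genes in the same order it was -5.02, -1.37, -2.72 and -2.29 in spermatogonia. In secondary spermatocytes it was -0.77, 0.61, -0.18 and 0.62, and in whole testis (5 knockout, 1 wildtype) -1.59, -1.32, -1.77 and -0.51. In primary spermatocytes a group of 6 libraries held 1 of each genotype. There *Catsper3* differed by 5.16, *Catsper4* by 3.17, *Catsper1* by 1.39 and *Kcnu1* by -0.50. The testis-derived libraries grouped with those of mice 544 and 550 were all knockout. Single libraries allow no test of these values.

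In whole testis the knockout minus wildtype differences ran from -1.14 ± 1.61 (*Catsper1*) to 0.78 ± 0.45 (*Catsperg1*), beside 0.39 for the median of all genes. The exact permutation of 5 knockout against 2 wildtype testes gave two-sided p from 0.143 (*Catsperg2*) to 1 (*Catsper3*), where the smallest p this design allows is 0.0476. With quantile normalization 6 of these differences turned from positive to negative, among them *Catsper2* (from 0.26 to -0.36) and *Catsper4* (from 0.18 to -0.57), so no direction is given for these genes.

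**Figure D4:**
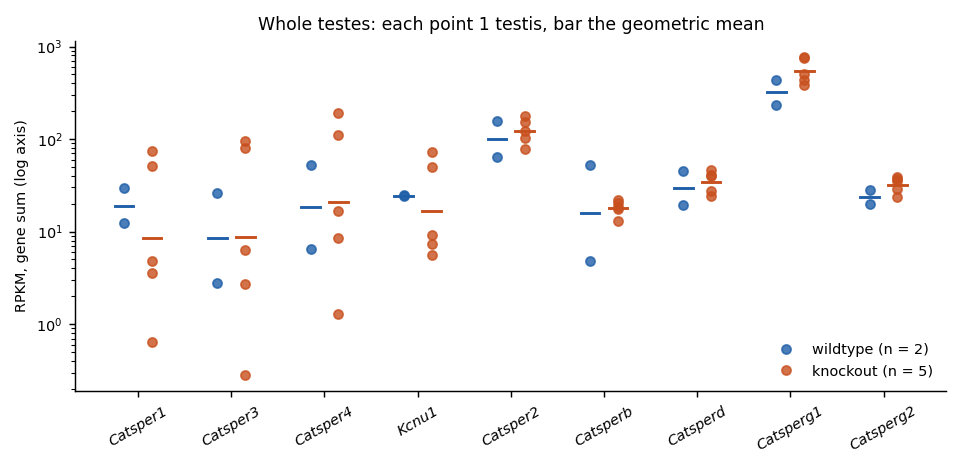
RPKM of each gene (sum of its transcripts, log axis) in 7 whole testes, each point 1 testis and each bar the geometric mean of a genotype, blue for wildtype (n = 2) and orange for knockout (n = 5). *Catsper1*, *Catsper3* and *Catsper4* span more than a factor of 10 among the knockout testes, and the wildtype testes lie within that span.

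Genes that act with these channels were counted in the same fits. There 16.0% of all genes were higher in the later stages. The earlier stages again include spermatogonia, so a gene that is low only there can pass. From spermatogonia to primary spermatocytes 7.54% of all genes rose, and from primary to secondary spermatocytes 2.81% did. Of 8 further CatSper complex genes 6 were matched in the table and tested, and 5 were higher in the later stages. *Efcab9*, which encodes a calcium sensor of the complex, was higher by 3.06 ± 0.52 (adjusted p by limma 0.000625), *Tmem262* by 2.71 ± 0.57 (0.00227) and *Slco6c1*, a transporter found with the channel, by 1.27 ± 0.39 (0.0184). *Tmem262* was also the 1 gene of this list that rose from primary to secondary spermatocytes (2.98, adjusted p by limma 0.0486), and 4 rose from spermatogonia to primary spermatocytes. The median difference between later and earlier stages over the 6 was 1.26.

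Of 7 genes for the Slo3 partner and for ion or pH transport of sperm 5 were higher in the later stages (median over the list 1.53), where 16.0% of all genes were. *Lrrc52*, the auxiliary subunit of Slo3, was higher by 2.91 ± 0.72 (adjusted p by limma 0.00559), close to *Kcnu1* itself. *Atp1a4*, the sperm sodium pump subunit, was higher by 3.06 ± 1.07 (0.0352) and *Slc9c1*, the sperm sodium-hydrogen exchanger, by 1.55 ± 0.49 (0.0225). Of 9 genes of flagellar cAMP and calcium signalling 5 were higher (median 1.80). The leading ones were *Cabyr*, a calcium-binding protein of the fibrous sheath, by 3.39 ± 0.70 (0.00190), and the anchoring proteins *Akap4* by 3.32 ± 1.01 (0.0186) and *Akap3* by 3.25 ± 0.83 (0.00692). Of the 3 other Slo channel genes 0 differed between later and earlier stages, and *Kcnt1* was lower in primary spermatocytes than in spermatogonia (-2.83 ± 0.58, adjusted p by limma 0.00232). No gene of these lists passed in a genotype comparison, where at most 0.00880% of all genes did. None was lower in the later stages, where 17.7% of all genes were. Without the spermatogonia of mouse 544, 20.8% of all genes were higher in the later stages. In the same order 5 of 6, 5 of 7, 6 of 9 and 0 of 3 listed genes were, with medians of 1.57, 1.70, 2.30 and -0.0025. Again 0 of them passed in a genotype comparison. In the first list *Efcab9* then rose from primary to secondary spermatocytes as well (2.50, adjusted p by limma 0.00503), beside *Tmem262* (2.98, 0.00706).

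The likeness of the 9 genes across the 20 sorted libraries is given as a description, because the libraries share mice and stages. Pearson's r was between 0.81 and 0.96 among *Catsper1*, *Catsper3*, *Catsper4* and *Kcnu1*. It was highest for *Catsperd* with *Catsperg2* (0.98) and lowest for *Catsper3* with *Catsperb* (0.04). *Catsper2* had an r of 0.60 to 0.76 with the first 4 and of 0.79 to 0.88 with the auxiliary genes. The gene outside the set with the pattern most like each member, among 14641 genes with a mean of at least 1 RPKM, was *Zfp474* for *Catsper1* (r = 0.99), *Kif9* for *Catsper2* (0.99), *1700061G19Rik* for *Catsper3* (0.99) and *Fam19a3* for *Catsper4* (0.98). It was *Sphkap* for *Catsperb* (0.98), *Capn11* for *Catsperd* (0.98), *Trim39* for *Catsperg1* (0.95), *Poteg* for *Catsperg2* (0.98) and *Fbxl13* for *Kcnu1* (0.99). Many genes followed the same course, since 552 genes had an r above 0.9 with *Catsper1* and 402 with *Kcnu1*, against 87 with *Catsperb* and 19 with *Catsperg1*. Over the 19 libraries without the spermatogonia of mouse 544 the r among the first 4 genes was 0.80 to 0.96, that of *Catsper3* with *Catsperb* 0.06, and the nearest gene of each member was the same.

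**Figure D5:**
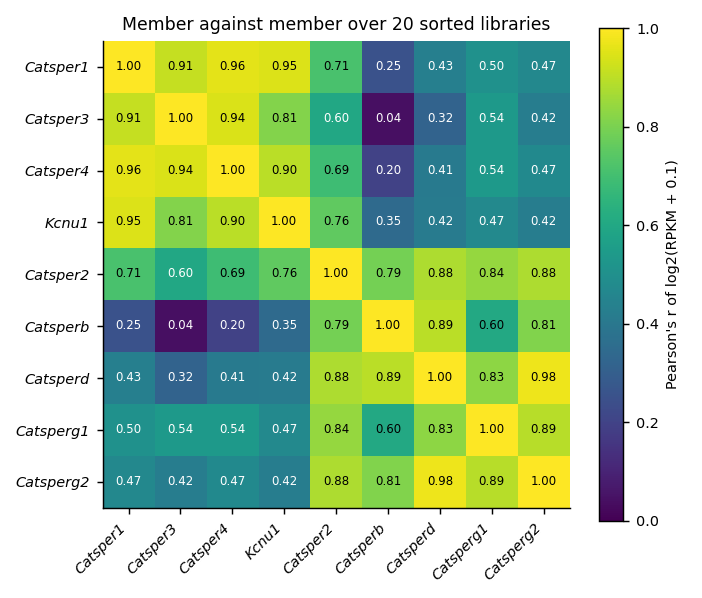
Pearson's r of log2(RPKM + 0.1) between each pair of genes over 20 sorted libraries, colour scale from 0 to 1. *Catsper1*, *Catsper3*, *Catsper4* and *Kcnu1* have r of 0.81 to 0.96 with each other, and 0.04 to 0.54 with the 4 auxiliary genes, while *Catsper2* lies between.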

How the data were processed

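The authors prepared poly(A) RNA libraries, mapped paired-end reads with TopHat2 against an Ensembl annotation, and the matrix they deposited holds an RPKM for each transcript and library. Transcripts were assigned to genes with the GRCm38 annotation (90339 of 94480 matched, 95.6%) and summed per gene, with a missing transcript as 0 (no member had one). Values fell on whole reads in 27 libraries (93.1 to 94.5% within 0.06 of a whole read, 12% by chance), which gave the depths. In the library of mouse 613 this share was 11.7%, so its depth is unknown, and all 28 libraries vary in precision with depth. The ovary of a wildtype mouse was kept out of all comparisons.

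Tests used limma 3.58.1 in R 4.3.3 on log2(RPKM + 0.1), with a trend on the mean, over genes averaging 0.1 RPKM or more (22715 in sorted cells, 22763 in whole testes). The 20 sorted libraries were fitted as 8 groups of genotype and stage, and the testes on their own. Genes were called at an adjusted p of 0.05. The method was tested on simulated data with independent libraries and an equal spread for every gene. That setting lacks the likeness of libraries from 1 mouse, so it does not check the p-values given here. Exact permutation tests used Python 3.11.15. No count model was fitted to RPKM, and the adjustment and tests named by the authors (PEER, PoissonSeq) were not run. The replicate is the mouse. Several stages came from 1 mouse, and residuals of 22 library pairs from 1 mouse had a median r of 0.53 (-0.18 to 0.76), against -0.06 between mice, so a fit with the mouse as a random block (correlation 0.40) was run beside the main one. Alternatives varied the pseudocount, the filter, the scaling, the transcripts summed and the libraries. The covariate for libraries quantified together, the fits without both the spermatogonia of mouse 544 and the library of mouse 613, and the permutation, list counts and correlations without the former were added after seeing the data. The members and gene lists were chosen with earlier results of these data known. Named genes were all members, the 3 of each list with the largest called difference between later and earlier stages, any that fell, and the nearest gene to each member by correlation.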

Additional observations from a re-analysis of the deposited data

Results flagged for a closer look

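The wildtype whole ovary, which no comparison used, held reads of 4 of the 9 genes above the 3 reads that a count of 0 allows. The leading transcript had 57 reads for *Catsperd* (0.421 RPKM), 54 for *Kcnu1* (0.290 RPKM), 49 for *Catsper2* (0.413 RPKM) and 13 for *Catsperg1* (0.069 RPKM). These read numbers come from RPKM, length and estimated depth, and cover counting error only. In gene sums the ovary had 1.63 RPKM of *Catsper2* and 1.59 RPKM of *Kcnu1*, and *Catsper1*, *Catsper3*, *Catsper4*, *Catsperb* and *Catsperg2* were at 0 there. On the scale of log2(RPKM + 0.1), Dixon's criterion was applied to the 9 genes in the knockout primary spermatocytes (n = 4) and the knockout whole testes (n = 5), and no library stood apart in these 18 tests. The other groups had 2 or 3 libraries, spermatogonia included, and were not tested, and 0 interactions of genotype with stage passed.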

How the results depend on the processing

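The difference between later and earlier stages was positive for all 9 genes in all 34 settings, and *Catsper1*, *Catsper4* and *Kcnu1* passed in every one of them. For *Catsper2* and the auxiliary genes this is no sign of a rise after primary spermatocytes. A percentage in brackets after a count of members is the share of all genes called in the same setting. Ranges over single omissions carry no such share here, and only some of their shares are given above. The number called higher in primary spermatocytes than in spermatogonia (5) was 2 without mouse 648 (1.46%) and 8 without mouse 544 (9.59%). It was 8 without the spermatogonia of mouse 544 and the library of mouse 613 (16.3%), and 9 when these were left out with the mouse as a block (19.9%). Leaving out 1 library at a time gave 3 to 8. Secondary over primary spermatocytes (0) gave 3 without mouse 544 (2.40%), 3 without the 2 libraries (11.7%), and 4 with them left out and the mouse as a replicate block (21.6%). That step gave 4 with the replicate block alone (14.5%), 1 with the quantification group as a covariate (11.7%), and 0 to 3 over single omissions. Spermatids over secondary spermatocytes (0) gave 3 with both left out and the block (3.34%). Later over earlier stages (8) gave 3 without mouse 648 (8.02%), and 6 to 8 over single omissions. Genotype counts (0) reached 0 to 7 in spermatogonia and 0 to 2 over the stages over single omissions, in both cases without the spermatogonia of mouse 286. The block changed no other count by more than 1.5 times.

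Genotype differences over the stages that changed sign were *Kcnu1* at -0.32 without mouse 544, -0.13 with the covariate, -0.34 without the 2 libraries and -0.23 with the block added, *Catsperb* at 0.19 without mouse 648, and *Catsper2* at -0.0035 and *Catsperd* at -0.081 without the 2 libraries. Over single omissions *Catsper2* ranged from -0.054 to 0.64, *Catsperd* from -0.05 to 0.34 and *Kcnu1* from -0.38 to 1.10, with the lowest values without the spermatogonia of mouse 544 and the highest without those of mouse 286. In whole testis *Catsper3* was at -0.053 with a pseudocount of 0.01 RPKM, and *Catsper4* at -0.016 by its highest transcript. Quantile normalization gave -0.36 for *Catsper2*, -0.67 for *Catsper3*, -0.57 for *Catsper4*, -0.40 for *Catsperb*, -0.43 for *Catsperd* and -0.23 for *Catsperg2*. Without mouse 648 *Catsper3* was at -1.59 and *Catsper4* at -1.32. Over single omissions *Catsper2* ranged from -0.38 to 0.91, *Catsperb* from -1.53 to 1.89 and *Catsperd* from -0.38 to 0.85, lowest without wildtype testis 178 and highest without wildtype testis 648. *Catsper3* ranged from -1.59 to 1.61 and *Catsper4* from -1.32 to 1.67, lowest without testis 648 and highest without testis 178, and both were also negative without knockout testis 214 or 273. The cause of these changes was not tested. With 2 wildtype libraries in most groups, the standard errors of the genotype difference over the stages were 0.72 for *Catsper1*, 0.80 for *Catsper4* and 1.06 for *Catsper3*, which limits what could be detected. These standard errors take libraries of 1 mouse as independent and may be too small.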
